A study of Mus musculus with 2 samples.

Results

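Potassium channels, voltage-gated sodium channels and the TRPC, TRPM and TRPV families of cation channels were examined in cells from healing mouse skin, on 2 microarrays. The genes were chosen by symbol. They were every gene beginning with Kcn other than Kcnj8, every Scn gene with a number followed by a or b, and every Trpc, Trpm or Trpv gene with a number. In all 121 such genes had a probe set naming them alone, of 19938 genes with such a probe set. The study compared B-Gal positive cells with B-Gal negative cells, 1 array each, both from skin scar tissue of TCF reporter mice 1 week post wounding. Both groups carry the reporter, a transgene read here as placing beta-galactosidase under TCF factors, through which beta-catenin controls genes in Wnt signalling. The sources used here do not give the way the cells were separated, the number and age of the mice or the exact reporter line. The annotation names 0 probe sets for lacZ, so the level of the reporter itself could not be set beside the labels. With 1 array per group no difference has a replicate error or a test, and every value below describes these 2 arrays only.

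Potassium channels let potassium leave the cell and so hold the membrane voltage negative, which in cells that do not fire action potentials sets the electrical force for calcium entry. Sodium channel alpha subunits form the pore that carries the rising phase of the action potential in nerve and muscle, and beta subunits modify it. TRP channels are mostly calcium-permeable cation channels opened by lipids, oxidants, temperature, osmotic stress or receptor signalling. Macrophages and fibroblasts, both abundant in a healing wound, are known to use members of the potassium and TRP families, while most sodium channel genes are known from excitable cells.

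Deposited values were used as log2 expression values, a scale inferred from their range. A floor of 5.59 on the log2 scale was set at the 95th percentile of 1180 olfactory and vomeronasal receptor genes, which stand here for genes at background. Values under the floor were raised to it before a difference was taken, and a gene was counted at a difference of at least 2-fold. Each difference subtracts the B-Gal negative from the B-Gal positive log2 value, and a fold against a value under the floor is given as at least that size. Among the receptor genes the deposited difference had a median of 0.29 and an SD of 0.37 on the log2 scale, with the central 95% from -0.44 to 0.95, and 2.54% of them differed at least 2-fold.

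The promoter windows of 5 genes are shown because these genes carry the differences described below. Scn7a and Kcne4 had the largest differences on the lower side and Kcnn4 the largest on the higher side, while Trpv4 and Trpv2 were higher and hold letters searched for. Each window runs from 250 bases before to 50 bases after the annotated start, is from RefSeq on the build GRCm38.p6 and is written 5′ to 3′ on the gene's strand. Capitals mark a match to CTTTGAT, a core of the TCF/LEF site, or to GAGGAAGT, a core of the site of the myeloid factor PU.1, on either strand.
Scn7a, chr2:66784861-66785160, minus strand: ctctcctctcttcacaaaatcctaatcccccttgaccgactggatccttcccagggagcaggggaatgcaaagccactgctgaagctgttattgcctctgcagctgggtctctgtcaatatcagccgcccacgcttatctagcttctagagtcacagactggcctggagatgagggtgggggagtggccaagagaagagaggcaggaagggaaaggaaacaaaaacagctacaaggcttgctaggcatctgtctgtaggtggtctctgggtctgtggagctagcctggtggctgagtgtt
Kcne4, chr1:78816661-78816960, plus strand: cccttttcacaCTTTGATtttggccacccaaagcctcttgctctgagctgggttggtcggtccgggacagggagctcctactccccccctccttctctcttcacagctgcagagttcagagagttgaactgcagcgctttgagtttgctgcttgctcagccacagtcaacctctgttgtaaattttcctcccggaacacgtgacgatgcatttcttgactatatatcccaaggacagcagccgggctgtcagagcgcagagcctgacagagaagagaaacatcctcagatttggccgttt
Kcnn4, chr7:24370013-24370312, plus strand: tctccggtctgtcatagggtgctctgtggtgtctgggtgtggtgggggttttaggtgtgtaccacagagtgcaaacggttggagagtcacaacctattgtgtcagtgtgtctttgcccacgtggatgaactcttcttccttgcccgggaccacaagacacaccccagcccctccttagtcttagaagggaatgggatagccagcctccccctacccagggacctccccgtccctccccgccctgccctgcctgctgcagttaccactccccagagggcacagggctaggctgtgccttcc
Trpv4, chr5:114658372-114658671, minus strand: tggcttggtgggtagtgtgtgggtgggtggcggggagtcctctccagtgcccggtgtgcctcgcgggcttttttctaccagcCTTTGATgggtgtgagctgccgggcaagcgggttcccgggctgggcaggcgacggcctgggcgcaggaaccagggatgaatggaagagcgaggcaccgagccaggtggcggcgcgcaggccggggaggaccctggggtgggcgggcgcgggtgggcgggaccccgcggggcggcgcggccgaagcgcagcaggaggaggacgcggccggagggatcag
Trpv2, chr11:62574236-62574535, plus strand: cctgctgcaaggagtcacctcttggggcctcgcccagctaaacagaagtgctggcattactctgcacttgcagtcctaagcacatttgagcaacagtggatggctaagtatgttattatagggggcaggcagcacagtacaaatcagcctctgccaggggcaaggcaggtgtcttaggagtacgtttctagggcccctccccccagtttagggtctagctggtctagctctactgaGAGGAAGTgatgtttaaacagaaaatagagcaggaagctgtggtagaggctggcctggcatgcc
The TCF/LEF letters began at base 12 of the Kcne4 window and at base 83 of the Trpv4 window, and the PU.1 letters at base 237 of the Trpv2 window. Kcne4 was lower and Trpv4 higher in B-Gal positive cells, so the genes with the TCF/LEF letters lay on opposite sides. Of all 32851 windows of this length, 3.73% held the TCF/LEF letters and 3.20% the PU.1 letters. Of the 127 windows of 96 channel genes, 4 held the TCF/LEF letters and 2 the PU.1 letters, both of them overlapping Trpv2 windows that hold the same site. Among the 13 channel genes that differed at least 2-fold, 12 had a window, and no other of these held either motif. The AP-1 letters TGANTCA were in 7.81% of all windows and in 0 windows of these 12 genes, and the TATA box letters TATAAA in 13.6% of all windows and in a window of Trpm2 and a further, overlapping window of Trpv2. Each window printed holds at most 1 match to any of these motifs. A match describes the letters of a window and is not a measured binding site.

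Of the 121 channel genes, 7 were higher by 2-fold or more in B-Gal positive cells (5.79%, against 7.02% of all 18758 genes other than the receptor genes). They were Kcnn4, Kcnk13, Kcnab2, Kcna3, Trpv2, Trpv4 and Trpm2, most of them known from macrophages, microglia or lymphocytes. Lower by at least 2-fold were 6 genes (4.96%, against 8.53% of all genes), namely Scn7a, Kcne4, Trpc6, Trpc1, Kcnk5 and Kcnd1. Both shares lay under those of all genes at this threshold. On the higher side the order turned when only the 51 channel genes with a mean at or over the floor were taken (7 higher, 13.7%, against 10.1% of all genes), and at 4-fold (3 of 121, 2.48%, against 2.14%). Nothing is read from the counts as particular to channel genes. The median difference after the floor was 0 for the channel genes and 0 for all genes. On deposited values, without the floor, 7 channel genes were higher (against 7.55% of all genes) and 8 lower (against 9.62% of all genes) by 2-fold or more. Added on the lower side were Kcnma1 and Kcnt2, the second with both values under the floor. The medians of the deposited differences were 0.21 for channel genes, 0.11 for all genes and 0.29 for the receptor genes.

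Many of the channel genes had values near background. On both arrays 38 of the 121 lay above the floor, a further 14 did so in B-Gal positive cells only and 8 in B-Gal negative cells only. Together 49.6% lay above it on at least 1 array, against 73.5% of all genes. The other 61 genes lay at or under the floor on both arrays, with deposited differences from -1.004 to 0.792, and their order was not read. Of the 47 genes that were above the floor on an array and differed by under 2-fold, 41 lay within 0.5 of 0 on the log2 scale.

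**Figure D1:**
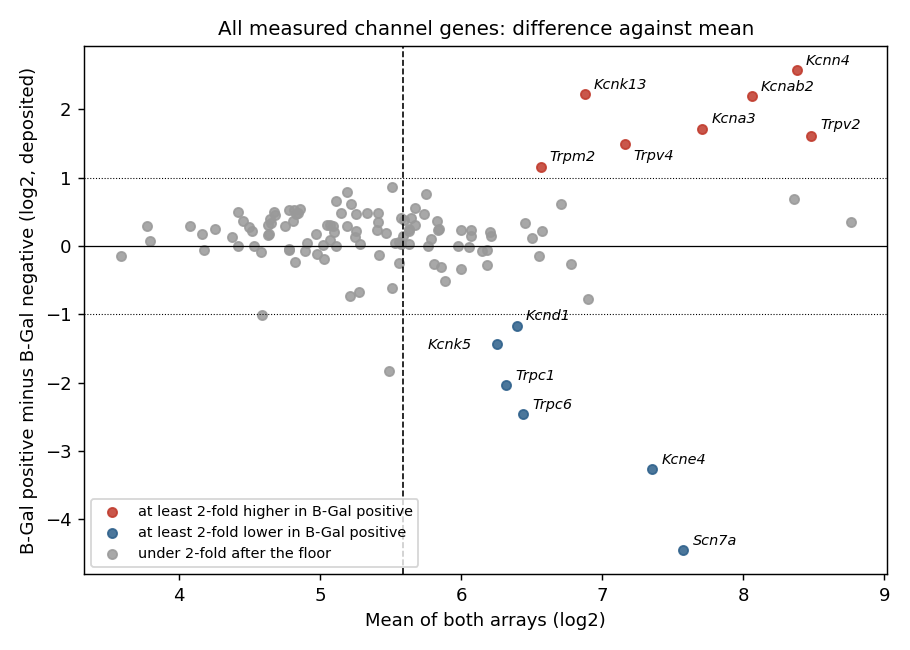
Each point is 1 of the 121 channel genes, with the mean of both arrays (log2) on the x axis and the deposited difference, B-Gal positive minus B-Gal negative (log2), on the y axis. The dashed line is the floor of 5.59 and dotted lines mark 2-fold. The 7 higher and 6 lower genes run from Kcnn4 at 2.58 to Scn7a at -4.45, and most other genes form a band around 0. Kcnma1 (-1.82) and Kcnt2 (-1.004) are grey beyond the lower dotted line because the floor takes their differences under 2-fold.

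Among pore-forming potassium channel subunits, the largest difference on the higher side was that of Kcnn4, the calcium-activated channel KCa3.1, which calmodulin opens when calcium enters the cell. Kcnn4 had a log2 value of 9.67 in B-Gal positive cells and 7.09 in B-Gal negative cells, a 5.97-fold difference with both arrays above the floor. The other calcium- and sodium-activated members did not share this difference. Kcnn1 had log2 values of 6.16 in B-Gal positive cells and 6.21 in B-Gal negative cells, and Kcnn3 had 5.70 and 6.01 in the same order. Kcnn2, Kcnt2 and Kcnu1 lay at or under the floor on both arrays. Kcnt1 was over the floor in B-Gal positive cells only, at 5.79 against 5.41 in B-Gal negative cells.

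Kcnma1, the large-conductance channel that both voltage and calcium open, was below the floor in B-Gal positive cells. Its log2 value was 4.58 in B-Gal positive cells and 6.40 in B-Gal negative cells, at least 1.76-fold lower, short of the 2-fold count that its deposited difference of -1.82 would have reached. A dimmer probe set of the same gene had 5.30 in B-Gal positive cells and 4.36 in B-Gal negative cells, the other direction, with both values under the floor. The direction for Kcnma1 therefore rests on 1 probe set. Its beta subunits, which alter calcium sensitivity and gating, differed little. Kcnmb1, the smooth muscle subunit, had 5.20 in B-Gal positive cells and 5.82 in B-Gal negative cells, and Kcnmb4 had 5.63 and 6.14 in that order. Kcnmb3 had 6.62 in B-Gal positive cells and 6.28 in B-Gal negative cells.

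The voltage-gated group was the largest, with 35 genes, 18 of them above the floor on at least 1 array. By 2-fold, 1 was higher (against 7.02% of all genes) and 1 lower (against 8.53%). Kcna3, the Kv1.3 channel of T cells and activated macrophages, had a log2 value of 8.57 in B-Gal positive cells and 6.85 in B-Gal negative cells, 3.29-fold higher. Kcnd1, the A-type channel Kv4.1, had 5.81 in B-Gal positive cells and 6.98 in B-Gal negative cells, 2.24-fold lower. Kcnd1 stood close to the threshold, its value in B-Gal positive cells was barely above the floor, and under the receptor genes' 99th percentile as floor its difference was -0.70. The 16 other genes above the floor differed by -0.14 (Kcng2) to 0.37 (Kcnv2) on the log2 scale after the floor. Within this range were Kcns3, a modifying subunit with 6.69 in B-Gal positive cells and 6.46 in B-Gal negative cells, and Kcnq1, with 5.97 and 5.72 in that order.

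Tandem-pore (K2P) channels carry the background potassium current that sets the resting voltage. Of their 14 genes 10 were above the floor on an array. By 2-fold, 1 was higher (against 7.02% of all genes) and 1 lower (against 8.53%). Kcnk13, the THIK-1 channel known from microglia, had a log2 value of 7.99 in B-Gal positive cells and 5.77 in B-Gal negative cells, 4.68-fold higher. Kcnk5, the pH-sensitive TASK-2 channel, had 5.54 in B-Gal positive cells, under the floor, and 6.97 in B-Gal negative cells, at least 2.61-fold lower. Under a higher floor (the receptor genes' 99th percentile) the Kcnk5 difference was -0.69 on the log2 scale and no longer reached 2-fold. The 2 genes thus separated in opposite directions, each close to the floor in the group where it was low. Kcnk6, the TWIK-2 channel that carries potassium out of macrophages stimulated by ATP, had 8.70 in B-Gal positive cells and 8.02 in B-Gal negative cells. Its 1.61-fold difference was the nearest under the threshold on the higher side. The remaining genes of this family above the floor, Kcnk1, Kcnk2, Kcnk3, Kcnk4, Kcnk7, Kcnk12 and Kcnk15, differed by -0.34 to 0.39 after the floor.

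None of the 14 inward rectifier genes differed by 2-fold, and 6 were above the floor on an array. Inward rectifiers pass potassium more easily into the cell than out of it. Kcnj2, the Kir2.1 channel found in macrophages among many other cells, had a log2 value of 7.01 in B-Gal positive cells and 6.40 in B-Gal negative cells, 1.53-fold higher. Kcnj10 was over the floor in B-Gal positive cells only, with 6.13 against 5.37 in B-Gal negative cells, at least 1.46-fold higher. The other genes of this family above the floor were Kcnj4, Kcnj11, Kcnj14 and Kcnj15, between -0.26 and 0.20 on the log2 scale.

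Auxiliary subunits do not form a pore but bind the channels and change their trafficking or gating. Of 17 such genes 8 were above the floor on an array. By 2-fold, 1 was higher (against 7.02% of all genes) and 1 lower (against 8.53%). Kcnab2, the cytoplasmic Kv beta 2 subunit that binds channels of the Kcna group, had a log2 value of 9.16 in B-Gal positive cells and 6.97 in B-Gal negative cells, 4.57-fold higher. Kcne4, a single-span subunit known to reduce the current of Kcnq1 and Kcna3 channels in expression systems, had 5.72 in B-Gal positive cells and 8.99 in B-Gal negative cells, 9.60-fold lower. Its value in B-Gal positive cells was barely above the floor, so the size of this fold is uncertain. Under the receptor genes' 99th percentile as floor the Kcne4 difference was -2.71 on the log2 scale. Kcna3 and Kcnab2 were thus both higher, and Kcne4 lower, on the B-Gal positive array. Whether these genes are expressed in the same cells was not tested. Kcne3, a subunit of epithelial channels, lay under the floor on both arrays, at 4.71 in B-Gal positive cells and 4.94 in B-Gal negative cells. Of the other auxiliary genes, Kcnab1, which lay above the floor in B-Gal negative cells only, had 4.94 in B-Gal positive cells and 5.61 in B-Gal negative cells.

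**Figure D2:**
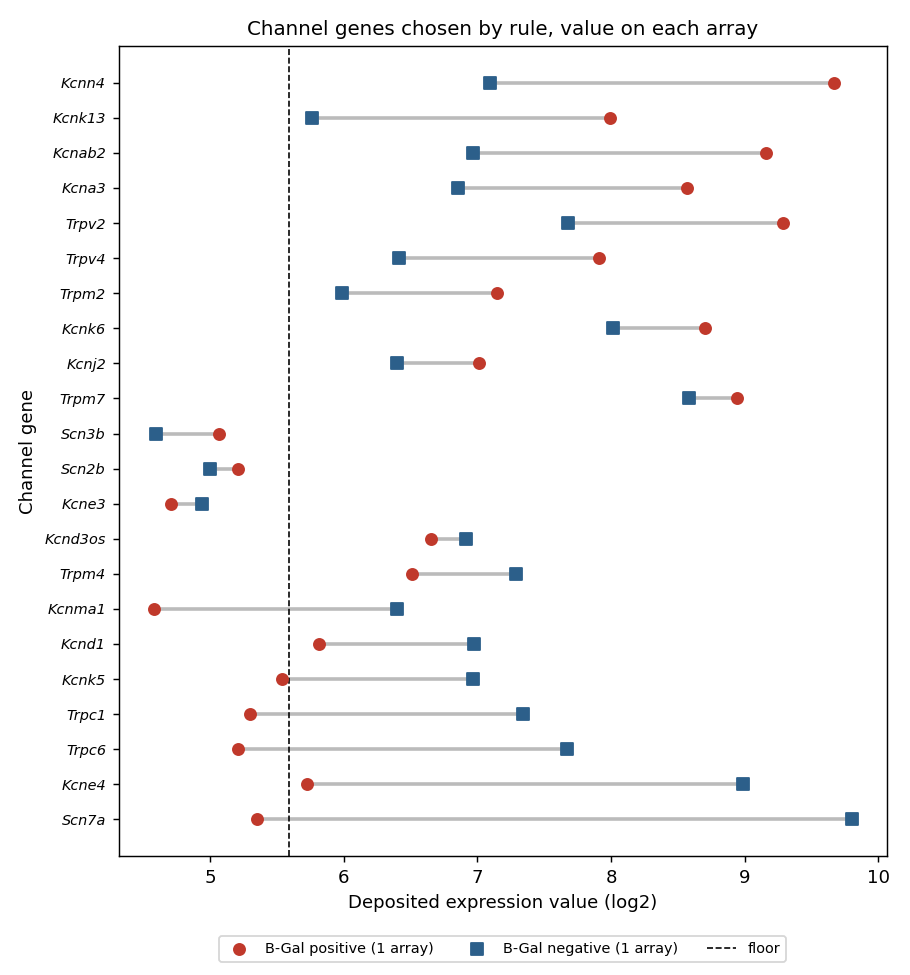
Deposited log2 values on the x axis for 22 channel genes on the y axis, sorted by difference. Circles are the B-Gal positive array, squares the B-Gal negative array, and the dashed line the floor of 5.59. The upper 7 genes have both values above the floor, while Scn7a, Trpc6, Trpc1 and Kcnk5 lie under it in B-Gal positive cells.

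Sodium channel genes were mostly near background, and Scn7a was the clear exception. Scn7a, an atypical sodium channel that responds to extracellular sodium rather than to voltage and is known from glia, had a log2 value of 5.35 in B-Gal positive cells, under the floor, and 9.80 in B-Gal negative cells, at least 18.6-fold lower. This was the largest difference of any channel gene here in either direction. Of the 7 other alpha subunit genes, only Scn2a was above the floor, with 6.04 in B-Gal positive cells and 6.32 in B-Gal negative cells. Scn2a had 14 probe sets, of which 2 were above the floor on an array, and all 14 were lower in B-Gal positive cells, with deposited differences from -1.18 to -0.27. Nothing is read from the direction of those under the floor, and probe sets of 1 gene on the same arrays are not replicates. All 3 beta subunit genes measured, Scn2b, Scn3b and Scn4b, were under the floor on both arrays. Scn2b had 5.21 in B-Gal positive cells and 4.997 in B-Gal negative cells, and Scn3b had 5.07 and 4.60 in that order.

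Scn7a lies in a run of sodium channel genes on chromosome 2, at the end beside Scn9a, which is followed by Scn1a in the order of protein-coding genes. These genes did not show its value. Scn9a had 3.92 in B-Gal positive cells and 3.62 in B-Gal negative cells, and Scn1a had 3.52 and 3.66 in that order, all under the floor. Kcna3 on chromosome 3 was likewise the 1 gene of its run of 3 that differed by 2-fold. Next to it, Kcna2 had 6.14 in B-Gal positive cells and 5.99 in B-Gal negative cells, and Kcna10 had 5.94 and 5.08 in that order. The third called gene with a neighbouring channel gene, Kcnk5 on chromosome 14, lay beside Kcnk16, which was under the floor on both arrays. In all, 15 runs of neighbouring channel genes were found, 3 with 1 gene that differed by 2-fold and 0 with more than 1.

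The TRPC genes that differed by 2-fold were lower and the TRPV genes that did so were higher, while most genes of both families lay under the floor. Of 5 TRPC genes, which encode receptor-operated channels of the phospholipase C pathway, 2 were at least 2-fold lower (against 8.53% of all genes) and 0 higher. Trpc6, which diacylglycerol opens and which is known in the conversion of mouse fibroblasts to myofibroblasts, had a log2 value of 5.21 in B-Gal positive cells and 7.67 in B-Gal negative cells, at least 4.24-fold lower. Trpc1 had 5.30 in B-Gal positive cells and 7.34 in B-Gal negative cells, at least 3.37-fold lower. Both were above the floor in B-Gal negative cells only, and Trpc4, Trpc5 and Trpc7 were under it on both arrays. Under the receptor genes' 99th percentile as floor the difference was -1.39 for Trpc6 and -1.06 for Trpc1 on the log2 scale, the latter close to the threshold. Of 6 TRPV genes, 2 were at least 2-fold higher (against 7.02% of all genes) and 0 lower. With so few genes and no test, these counts describe the genes named and not the families. Trpv2, a calcium-permeable channel known in macrophage phagocytosis, had 9.28 in B-Gal positive cells and 7.68 in B-Gal negative cells, 3.04-fold higher. Trpv4, which opens on osmotic swelling, warmth and mechanical load, had 7.91 in B-Gal positive cells and 6.41 in B-Gal negative cells, 2.82-fold higher. Trpv1, the capsaicin receptor of sensory neurons, had 5.49 and 5.02 in the same order, both under the floor, as were both values of Trpv3, the keratinocyte member, and of Trpv6. Trpv5 sat on the floor, at 5.59 in B-Gal positive cells and 5.23 in B-Gal negative cells.

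TRPM genes were mixed, with 3 of 8 above the floor on an array. Trpm2, which ADP-ribose opens under oxidative stress and which phagocytes express, had a log2 value of 7.15 in B-Gal positive cells and 5.98 in B-Gal negative cells, 2.24-fold higher and the nearest over the threshold on that side. Its difference was 0.87 on the log2 scale under that higher floor, short of 2-fold. Trpm4, which calcium activates and which passes sodium but not calcium, had 6.51 in B-Gal positive cells and 7.29 in B-Gal negative cells, 1.71-fold lower. Trpm7, a channel fused to a kinase and used by most cells, had 8.94 in B-Gal positive cells and 8.58 in B-Gal negative cells, a 1.28-fold difference. These 3 genes had both values above the floor. Trpm1, Trpm3, Trpm5, Trpm6 and Trpm8 lay under it on both arrays.

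The rule also took in 3 noncoding genes that carry a channel gene's symbol. Kcnd3os had a log2 value of 6.65 in B-Gal positive cells and 6.91 in B-Gal negative cells, while Kcnmb4os1 had 6.01 and 5.65 in that order and Kcnmb4os2 had 5.65 and 5.17. None differed by 2-fold. Further names that fit the symbol rule in the gene table, 11 in all, had no probe set naming them alone and were not analysed here.

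**Figure D3:**
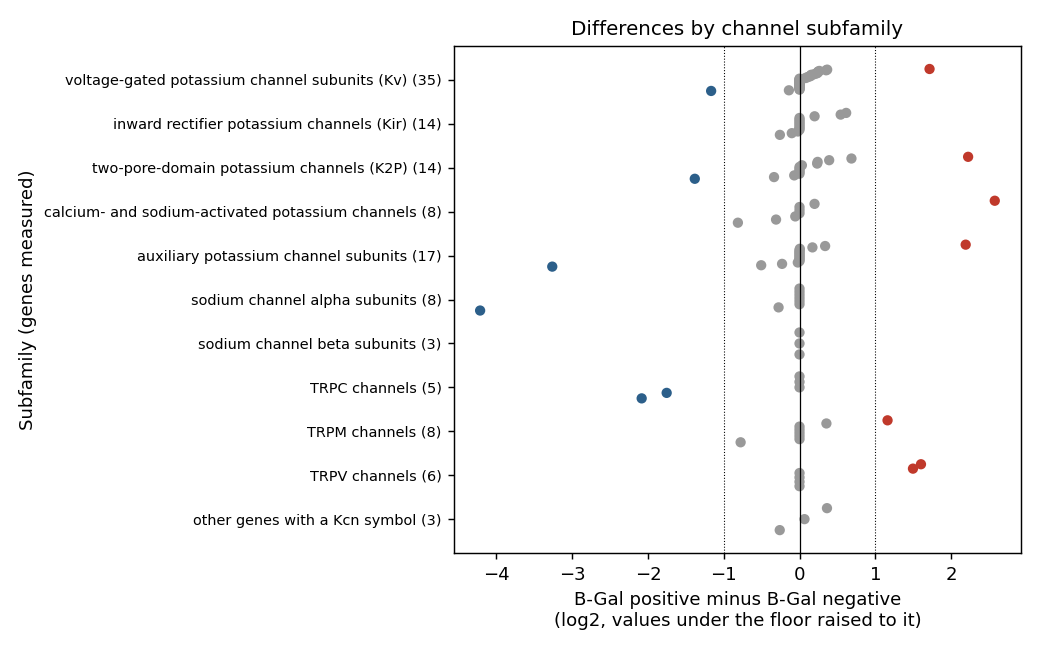
Each point is 1 channel gene, placed by its difference (B-Gal positive minus B-Gal negative, log2, values under the floor raised to it) on the x axis and by subfamily on the y axis, with the number of genes measured in brackets and dotted lines at 2-fold. Red points are at least 2-fold higher, blue at least 2-fold lower, and grey neither; the 2 TRPC points away from 0 are lower, the 2 such TRPV points are higher, and the rest of both families lie at 0.

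Cell type markers also differed between the arrays, in a direction that depended on the list. All 10 macrophage markers were higher by 2-fold or more in B-Gal positive cells, where they ranged from 10.3 to 12.5, against 4.29 to 9.22 in B-Gal negative cells, and their linear values summed to a log2 of 15.28 and 10.97 in that order. All 10 fibroblast markers were at least 2-fold lower, ranging from 5.79 to 12.04 in B-Gal positive cells and from 9.10 to 13.96 in B-Gal negative cells, with sums of 13.9 and 16.4. Also lower were 7 of 8 mural and smooth muscle markers (sums of 9.83 in B-Gal positive cells and 13.3 in B-Gal negative cells), 6 of 8 endothelial markers (9.55 and 11.1) and 7 of 8 mast cell markers (8.29 and 11.4). Cd163 and Ms4a7 lay below the floor in B-Gal negative cells, while no defining fibroblast marker was under it in either group. The part of these cell types in the channel gene differences was not tested, and with bulk RNA fewer cells of a type and less RNA per cell cannot be told apart.

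Markers of the excitable and glial cells that sodium channels are known from were low on both arrays. Of 8 neuron markers 2 were over the floor in B-Gal positive cells and 2 in B-Gal negative cells, with sums of 8.17 and 8.37. Among them 1 was lower by 2-fold and 0 higher. This was Tubb3, with 5.38 in B-Gal positive cells, under the floor, and 6.88 in B-Gal negative cells. Nefl, Nefm, Snap25, Elavl4 and Isl1 were under the floor on both arrays. Of 6 Schwann cell markers with a probe set 4 were above the floor in each group, with sums of 8.63 in B-Gal positive cells and 8.52 in B-Gal negative cells, and 0 differed by 2-fold. Sox10, the glial transcription factor gene, had 6.47 in B-Gal positive cells and 6.36 in B-Gal negative cells, and the part of glial cells in the Scn7a difference was not tested. Of 8 skeletal muscle markers 0 differed by 2-fold. T cells are known to use Kcna3 and Kcnn4, and T and NK cell markers had sums of 7.96 in B-Gal positive cells and 9.45 in B-Gal negative cells, with 2 of 6 lower by 2-fold and 0 higher. The part of T cells in the Kcna3 and Kcnn4 differences was not tested. Keratinocyte markers had sums of 8.49 in B-Gal positive cells and 9.09 in B-Gal negative cells, with 2 of 8 lower by 2-fold and 0 higher. Melanocyte markers had sums of 10.1 and 8.94 in the same order. Among the melanocyte markers 1 was higher by 2-fold, Mitf, which macrophages also express, and Dct, Tyr and Tyrp1 were under the floor on both arrays.

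**Figure D4:**
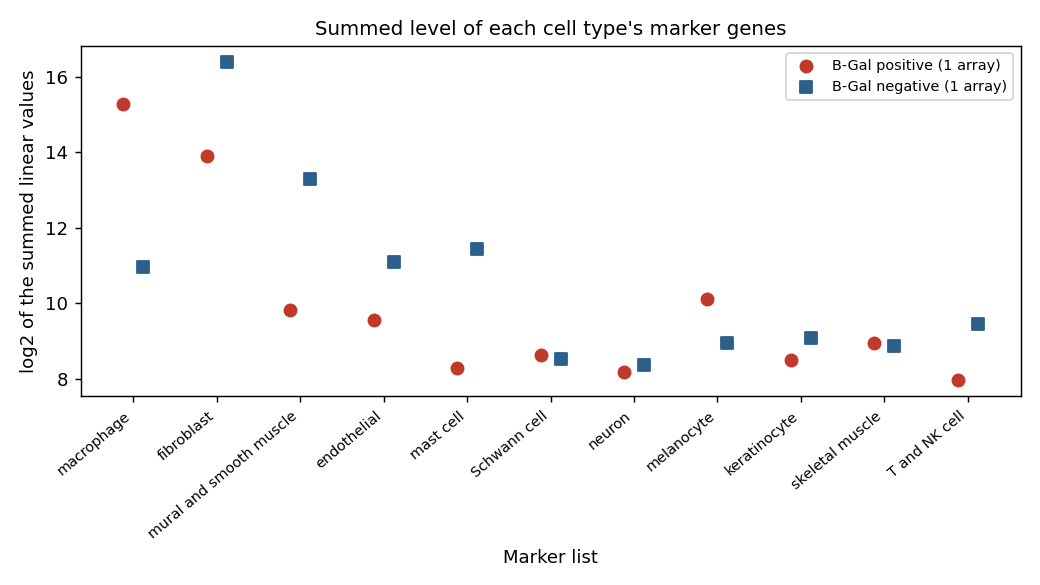
For each of 11 marker lists on the x axis, the log2 of the summed linear values is on the y axis, with circles for the B-Gal positive array and squares for the B-Gal negative array. The macrophage sum is higher in B-Gal positive cells (15.28 against 10.97) and the fibroblast, mural, endothelial and mast cell sums are lower.

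Other ion transport genes, 116 in 8 lists, gave 7 at least 2-fold higher (6.03%, against 7.02% of all genes) and 12 at least 2-fold lower (10.3%, against 8.53% of all genes). Voltage-gated calcium channel subunits had 1 of 24 higher and 4 lower. The pore subunit Cacna1d was the higher one, with a log2 value of 8.67 in B-Gal positive cells and 5.27 in B-Gal negative cells, at least 8.48-fold. The auxiliary subunit Cacna2d1 had 4.93 in B-Gal positive cells and 8.52 in B-Gal negative cells, at least 7.65-fold lower, and the cardiac and smooth muscle pore subunit Cacna1c was 3.35-fold lower. The L-type pore genes Cacna1d and Cacna1c thus lay on opposite sides. Among store-operated and intracellular calcium channels 3 of 15 were higher and 1 lower. The higher ones were channels of endosomes and lysosomes, Tpcn1 (2.91-fold), Tpcn2 (2.39-fold) and Mcoln2 (2.36-fold), and the lower one was the inositol trisphosphate receptor gene Itpr3, named after its value was seen (2.17-fold).

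Of the Piezo, TRPA and polycystin genes 2 of 9 were lower and 0 higher. Over all genes 8.53% were lower and 7.02% higher. Counts in this list and the short lists that follow describe only the genes named. Piezo2, a mechanically opened channel of touch receptors, had a log2 value of 6.03 in B-Gal positive cells and 8.42 in B-Gal negative cells, 5.23-fold lower, and Pkd1, which encodes polycystin, was 2.22-fold lower. Chloride and volume-regulated channels had 2 of 30 higher and 1 lower. Lrrc8d, a subunit of the volume-regulated anion channel, had 8.75 in B-Gal positive cells and 6.79 in B-Gal negative cells, 3.89-fold higher. Clcn7, the chloride and proton exchanger of lysosomes, was 2.54-fold higher, and Ano1, a calcium-activated chloride channel, was at least 2.93-fold lower. Cation-chloride cotransporters, which set cell volume and chloride, had 1 of 8 higher and 2 lower. Slc12a7 had 8.98 in B-Gal positive cells and 6.90 in B-Gal negative cells, 4.22-fold higher. Slc12a2 was 2.59-fold lower and Slc12a4 was 2.01-fold lower. Of 12 sodium-potassium pump genes 2 were lower, the regulator Fxyd1 (3.02-fold) and the subunit Atp1b1 (at least 2.03-fold), and 0 were higher. Of the 9 HCN and cyclic nucleotide-gated genes and the 9 epithelial, acid-sensing and leak sodium channel genes, 0 differed by 2-fold.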

How the data were processed

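Per the labels and the design text, total RNA of each cell group went onto 1 Affymetrix Mouse Gene 1.0 ST array. The deposited table, whose values were taken as log2, gives every probe set 1 value on each array. The software was Partek, per the submitters' processing notes, with no version. The steps by which probes were summarized and normalized, and the base of the logarithm, are not stated in the labels. Values ran from 1.16 to 14.8, with array medians of 6.16 in B-Gal positive and 6.18 in B-Gal negative cells. No scaling was added, and the number of arrays limits the precision.

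Of 28853 probe sets, 21789 named 1 gene in the platform annotation, 1621 named several and 5443 were not listed. Symbols were matched by gene ID to a RefSeq table of GRCm38.p6 (21698 matched, 0 changed), used for names, gene order and promoter windows. Probe sets naming 1 gene were used, and of several for a gene the one with the highest mean of both arrays. Gene names in the text were set by rule: every channel gene that differed at least 2-fold after the floor, the brightest gene of each subfamily, 19 fixed genes (17 with a probe set) and up to 3 genes of each other ion transport list. Further channel genes are named to account for the families and were chosen after their values were seen. The genes and lists were chosen with earlier results of these data known. Alternatives were median centring, quantile normalization, a loess fit (span 0.4, 3 iterations), an offset of 32, a floor at the 99th percentile, no floor, a filter on the mean, the mean over probe sets, and thresholds of 1.5-fold and 4-fold. The procedure was tested on simulated data with shifts placed only in genes well above the floor. That test does not cover genes near the floor. Python 3.11.15, numpy 2.4.6, pandas 2.3.3 and statsmodels 0.14.6 were used.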

Additional observations from a re-analysis of the deposited data

How the results depend on the processing

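The counts of 7 higher and 6 lower channel genes held, with the same 13 genes, under median centring, quantile normalization, the loess fit, averaging of a gene's probe sets and the filter on the mean. That filter left 51 channel genes, so the shares became 13.7% higher and 11.8% lower, against 10.1% and 12.1% of all genes. A floor at the receptor genes' 99th percentile, or the offset of 32, gave 6 higher and 4 lower, without Kcnd1, Kcnk5 and Trpm2. Without a floor there were 7 higher and 8 lower, Kcnma1 and Kcnt2 being added, against 7.55% and 9.62% of all genes. At 1.5-fold there were 9 higher and 8 lower (7.44% and 6.61%, against 12.7% and 13.9% of all genes), and at 4-fold 3 higher and 3 lower (2.48% each, against 2.14% and 3.73%). For the 13 genes, all 91 values under 7 alternatives had the sign reported. These values reprocess the same arrays and are not independent checks. An offset or another floor cannot reverse a sign, and each of the 13 genes has 1 probe set, so averaging probe sets leaves its deposited values as they were. Only the floor moved under that averaging, from 5.587 to 5.581 on the log2 scale. Scn7a ranged from -4.45 to -3.52 and Kcnn4 from 2.33 to 2.60 on the log2 scale, while Kcnk5 ranged from -1.48 to -0.69. The loess fit moved the median deposited difference of all genes to -0.03, against 0.11 as deposited. No paired analysis was possible because each group had 1 array. No replicate could be left out for the same reason.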

Other observations

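Probe sets shared by several genes were left out of the comparison. The 4 that name a channel gene were lower in B-Gal positive cells by 0.29 to 0.34 on the log2 scale. The 3 shared among Scn1a, Scn2a, Scn3a and Scn9a were under the floor on both arrays, and the 1 shared by Xntrpc, Xndc1 and Trpc2 had 6.05 in B-Gal positive cells and 6.34 in B-Gal negative cells.

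Exactly the same value on both arrays was deposited for 614 probe sets (2.13% of all). Channel genes with such a value numbered 5 of 121 (4.13%), Kcng3, Kcnh3, Kcnip1, Kcnk12 and Kcnk18, against 1.60% of all genes other than the receptor genes. The cause was not tested.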
